A study of Mus musculus with 8 samples.

Results

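Retinoic acid synthesis and response was followed through 9 genes of the 24346 gene symbols measured in stromal cells of the mouse large intestine. The members were taken by symbol: the retinaldehyde dehydrogenases Aldh1a1, Aldh1a2 and Aldh1a3, the retinol and retinal enzymes Rdh10 and Dhrs3, the nuclear receptors Rara, Rarb and Rarg, and the degrading enzyme Cyp26b1. In the 4 cKO mice, both copies of Il10ra, the gene of the interleukin-10 receptor chain that binds the ligand, were floxed, and Cre recombinase was expressed from Pdgfra, which intestinal fibroblasts express. The 4 mice labelled WT carried the same floxed alleles without Cre. All 8 mice were 12 weeks old, no treatment is named, and each library came from a separate mouse. Live podoplanin-positive cells negative for CD45, CD31 and EpCAM were sorted, and the sort did not select for Cre activity.

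Retinoic acid is made from vitamin A in steps. Retinol is oxidised to retinal, a step in which Rdh10 takes part and which Dhrs3 runs in the opposite direction, and the Aldh1a enzymes then oxidise retinal irreversibly to retinoic acid. Retinoic acid binds the RAR receptors, which act with RXR partners at response elements in DNA, and CYP26 enzymes clear it. In the gut, retinoic acid from dendritic, epithelial and stromal cells is known for imprinting gut homing on lymphocytes and for promoting regulatory T cells. Dhrs3, Rarb and Cyp26b1 are known from other tissues as genes that retinoic acid induces, so their levels are often read as a response.

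The promoter windows of these 3 response genes are shown because their levels were compared across libraries as a possible joint response; as described below, no pair of them passed after adjustment. Each is a RefSeq sequence (GRCm38.p6) from 250 bases before to 50 bases after an annotated start, written 5′ to 3′ on the gene's strand, with capitals for retinoic acid receptor half-sites and for any direct repeat of them with its spacer.
Rarb (chr14:16575427-16575726, minus strand): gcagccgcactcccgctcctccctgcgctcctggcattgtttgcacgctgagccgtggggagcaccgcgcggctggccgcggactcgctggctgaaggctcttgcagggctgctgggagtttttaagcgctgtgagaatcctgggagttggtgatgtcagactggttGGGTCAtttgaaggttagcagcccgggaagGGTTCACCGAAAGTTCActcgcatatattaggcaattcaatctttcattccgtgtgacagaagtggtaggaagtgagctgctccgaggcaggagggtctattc
Dhrs3 (chr4:144892577-144892876, plus strand): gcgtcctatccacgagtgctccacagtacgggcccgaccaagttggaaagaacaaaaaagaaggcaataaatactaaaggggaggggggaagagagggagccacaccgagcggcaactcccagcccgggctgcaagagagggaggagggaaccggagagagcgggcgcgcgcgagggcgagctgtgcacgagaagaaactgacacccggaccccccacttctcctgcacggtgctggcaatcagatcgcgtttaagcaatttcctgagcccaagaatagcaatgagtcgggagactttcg
Cyp26b1 (chr6:84593761-84594060, minus strand): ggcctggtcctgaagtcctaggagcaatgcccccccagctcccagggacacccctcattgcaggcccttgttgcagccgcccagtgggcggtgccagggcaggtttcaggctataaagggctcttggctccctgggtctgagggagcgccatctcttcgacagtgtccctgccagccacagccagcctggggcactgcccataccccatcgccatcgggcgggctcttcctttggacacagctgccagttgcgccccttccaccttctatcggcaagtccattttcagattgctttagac
The half-sites searched were AGGTCA and its variants with another letter at the first position (GGGTCA), with another at the third position (AGTTCA), or with both of these changes (GGTTCA). They were sought on both strands, alone or as a direct repeat with a spacer of 1, 2 or 5 bases. The Rarb window held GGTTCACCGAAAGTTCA, a direct repeat with a 5-base spacer that lay 53 to 37 bases before the start, and a further single half-site. Such a 5-base-spaced repeat was found in 32 of 32851 RefSeq promoter windows (0.0974%), and a single half-site in 14358 (43.7%). The Dhrs3 and Cyp26b1 windows shown held none of these letters. Of the 9 members, 7 had an entry, with 14 windows in all (Aldh1a3 and Rdh10 had none). Only 1 of the 14, that of Rarb, held a direct repeat, and 5 held at least 1 half-site. A match in letters describes the sequence only.

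Levels are FPKM, fragments scaled by gene length and library size, which allows genes to be compared with each other. Between 15815 and 16323 genes were above 0 in a library, relative depth ran from 0.857 in WT 2 to 1.081 in cKO 3, and depth was estimated at 17800000 fragments. Fibroblast markers were abundant in every library (sum of 8 markers 13172 to 15407 FPKM in cKO and 14116 to 14833 FPKM in WT; Dcn averaged 7098 FPKM in cKO and 7055 FPKM in WT). Transcripts that the sort should remove were also present. The sum of 12 epithelium markers was 935, 494, 128 and 44.7 FPKM in cKO 1 to 4, against 118, 89.1, 54.4 and 111 FPKM in WT 1 to 4, and all 12 had a higher cKO mean. The 12 myeloid and dendritic markers summed to 67 to 146 FPKM in cKO and 56.2 to 89 FPKM in WT, with 11 higher in the cKO mean. No epithelium or myeloid marker was at 0 in all libraries. The library cKO 1 stood apart on the first principal component (-36.7, against -9.0 to 11.5 for the other 7 libraries). Il10ra itself was at 0.495 ± 0.175 FPKM in cKO and 0.631 ± 0.181 FPKM in WT (exact permutation p = 0.4, two-sided, n = 4 each, ± SD). The floxed part is not named and the value covers the whole gene, so the genotypes cannot be checked from it.

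No member of the pathway passed the test for a difference between cKO and WT cells. Of the 9 members, 8 had a mean of at least 1 FPKM and entered the test, and limma called 0 of them at a Benjamini-Hochberg adjusted p under 0.05, and 0 had an unadjusted p below that value. Among the 11506 tested genes, 1 was called (0.00869%) and 622 (5.41%) had an unadjusted p below 0.05. Among the 8 members, 4 had a higher and 4 a lower mean log2 value in cKO, with a median log2 difference of 0.01 and a range of -0.12 to 0.07, beside a median of -0.007 over all genes tested. Differences are cKO minus WT on the log2(FPKM + 1) scale, where differences of genes at low levels come out too small. In bulk RNA, fewer cells of a type and less RNA per cell cannot be told apart.

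**Figure D1:**
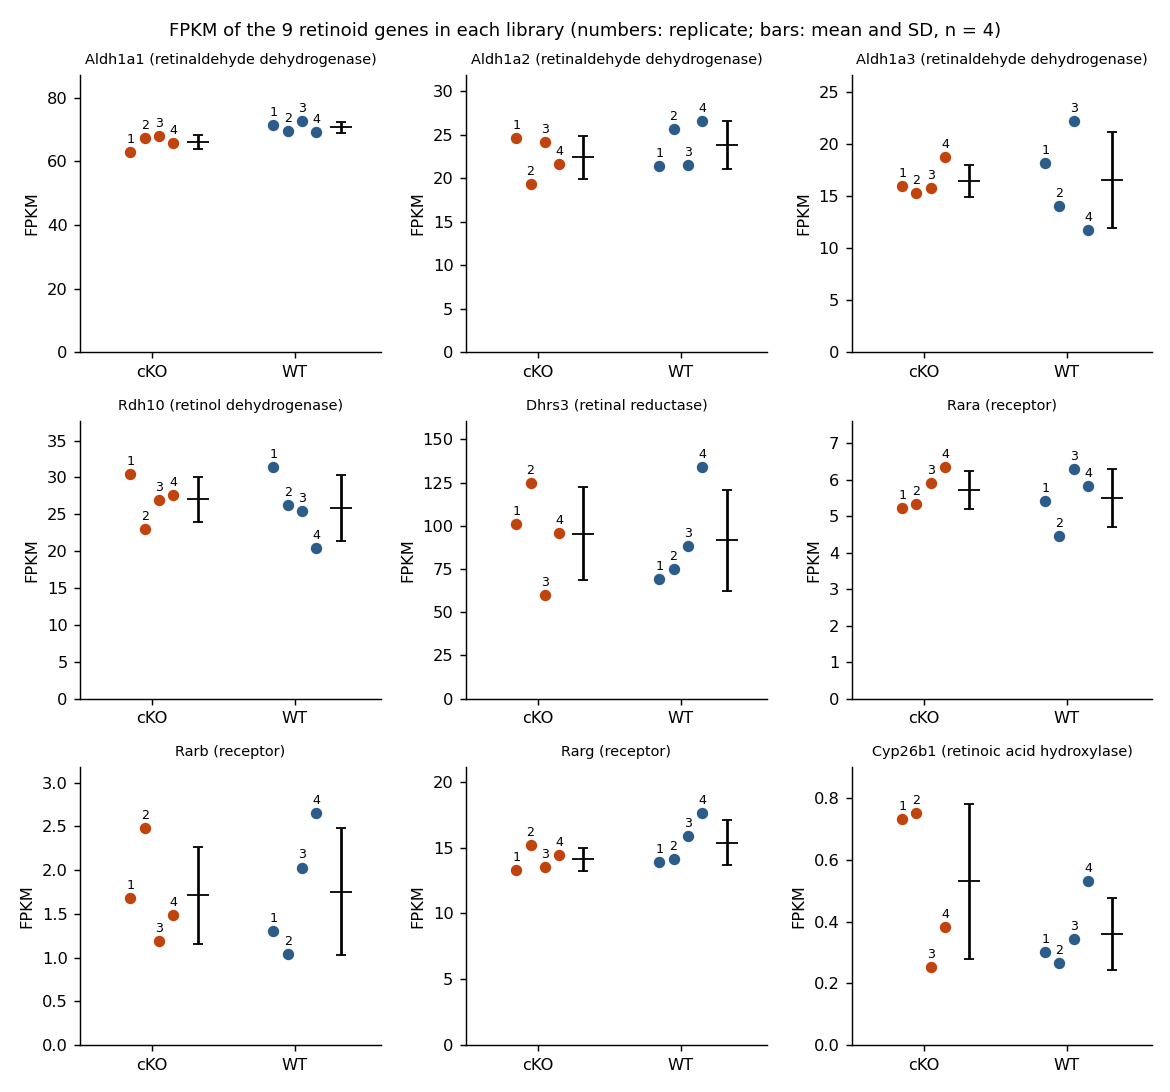
FPKM of each of the 9 members in each library, with 1 panel per gene, cKO libraries on the left and WT libraries on the right, and bars for the mean and SD (n = 4 each). The cKO and WT points overlap for every member except Aldh1a1, where the cKO points lie between 63.0 and 67.8 FPKM and the WT points between 69.1 and 72.7 FPKM.

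The 9 genes covered a wide range of levels. By the mean over all 8 libraries the order was Dhrs3 (93.6 FPKM), Aldh1a1 (68.3), Rdh10 (26.4), Aldh1a2 (23.1), Aldh1a3 (16.5), Rarg (14.7), Rara (5.61), Rarb (1.73) and Cyp26b1 (0.445). The ranges did not overlap between Aldh1a1 and Rdh10, between Rarg and Rara, between Rara and Rarb, or between Rarb and Cyp26b1. The other neighbours overlapped: Dhrs3 was above Aldh1a1 in 6 of 8 libraries, Rdh10 above Aldh1a2 in 7, Aldh1a2 above Aldh1a3 in 7 and Aldh1a3 above Rarg in 6. Every enzyme that makes retinal or retinoic acid among them was thus above the degrading enzyme Cyp26b1 in all 8 libraries.

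All 3 enzymes of the last, irreversible step were transcribed in these cells, and Aldh1a1 held the largest share. Aldh1a1, one of the cytosolic retinaldehyde dehydrogenases (chr19:20492715-20643465, plus strand, mm10), had 63.0, 67.4, 67.8 and 65.8 FPKM in cKO 1 to 4, against 71.5, 69.5, 72.7 and 69.1 FPKM in WT 1 to 4. Every cKO library lay below every WT library, by a small margin. Aldh1a1 averaged 66.0 ± 2.18 FPKM in cKO and 70.7 ± 1.70 FPKM in WT (SD, n = 4 each), a ratio of 0.93. The log2 difference was -0.10 (SE 0.05, 95% interval -0.20 to 0.00), and it did not pass in limma (adjusted p = 0.897). The two-sided exact permutation p was 0.0286, the smallest that 4 against 4 libraries allow. Of all genes tested, 219 (1.90%) had all cKO libraries below all WT libraries, and 375 (3.26%) did not overlap in either direction. After quantile normalization the groups overlapped (63.0 to 68.4 FPKM in cKO and 67.8 to 72.9 FPKM in WT). They also overlapped after rescaling to a fixed sum (62.8 to 68.5 FPKM in cKO and 68.2 to 72.5 FPKM in WT), where the log2 difference was -0.06. After median-of-ratios scaling the groups stayed apart (62.8 to 67.5 FPKM in cKO and 68.9 to 72.4 FPKM in WT). The paralogue Aldh1a7 lies beside Aldh1a1 (chr19:20692953-20727562, minus strand) and may share fragments with it, so both values are uncertain. Aldh1a7 had 0.555, 0, 0.0801 and 0 FPKM in cKO 1 to 4 and was listed at 0 in all WT libraries.

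Of the 11 marker lists, only those of blood and lymphatic endothelium had sums that did not overlap between the genotypes, the blood sums by a small margin. The sums of all other lists overlapped. The sum of 6 blood endothelium markers was 8.88 to 23.9 FPKM in cKO and 5.51 to 8.84 FPKM in WT, with 6 of 6 higher in the cKO mean. The sum of 6 lymphatic endothelium markers was 6.18 to 15.3 FPKM in cKO and 0.712 to 5.47 FPKM in WT, again with 6 of 6 higher. Most of the lymphatic sum in each cKO library came from 1 gene, Ccl21a. It had 11.9, 4.81, 7.2 and 7.63 FPKM in cKO 1 to 4, against 0.000329, 0.0017, 4.49 and 0.000607 FPKM in WT 1 to 4. At the estimated depth, the values of WT 1, WT 2 and WT 4 are less than 1 fragment, so they are not read as levels here. Without Ccl21a, the lymphatic sum of cKO 2 lay below that of WT 1, so the groups overlapped. Within the fibroblast compartment, the groups overlapped in the sum of 7 adventitial fibroblast markers, which was 3412 to 3799 FPKM in cKO and 3704 to 3955 FPKM in WT, with 2 of 7 higher. The mean log2(FPKM + 1) of the same 7 markers did not overlap, at 8.47 to 8.57 in cKO and 8.60 to 8.72 in WT. None of these markers was at 0 in all libraries, and their part in the values of Aldh1a1 was not tested.

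Aldh1a2, the enzyme that supplies most retinoic acid in the early mouse embryo (chr9:71215789-71296243, plus strand), had 24.6, 19.3, 24.2 and 21.6 FPKM in cKO 1 to 4, against 21.4, 25.7, 21.5 and 26.6 FPKM in WT 1 to 4. The values alternated within both groups and overlapped. Its means were 22.4 ± 2.49 FPKM in cKO and 23.8 ± 2.72 FPKM in WT (log2 difference -0.08, SE 0.10, 95% interval -0.30 to 0.14, limma adjusted p = 0.957, exact permutation p = 0.514).

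Aldh1a3, the third retinaldehyde dehydrogenase (chr7:66390890-66427517, minus strand), had 16.0, 15.3, 15.8 and 18.7 FPKM in cKO 1 to 4, against 18.2, 14, 22.2 and 11.7 FPKM in WT 1 to 4. The WT libraries held both the highest and the lowest value, and all cKO values lay between them. Its means were 16.4 ± 1.51 FPKM in cKO and 16.5 ± 4.63 FPKM in WT (log2 difference 0.03, SE 0.16, 95% interval -0.34 to 0.39, limma adjusted p = 0.994, exact permutation p = 0.971).

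Added together, the 3 Aldh1a genes reached 104, 102, 108 and 106 FPKM in cKO 1 to 4, against 111, 109, 116 and 107 FPKM in WT 1 to 4. Only cKO 3 reached into the range of the WT libraries. Aldh1a1 made up 63.0 ± 2.25% of the sum in cKO and 63.7 ± 0.89% in WT (SD, n = 4 each). Aldh1a2 made up 21.4 ± 2.16% in cKO and 21.5 ± 3.09% in WT, and Aldh1a3 15.7 ± 1.32% in cKO and 14.8 ± 3.63% in WT. The mean shares differed by less than 1 SD of the cKO or the WT libraries for each enzyme.

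Of the enzymes at the retinol and retinal step, Dhrs3 was the most abundant member in the mean and varied more than most genes between mice of 1 genotype. Rdh10, a retinol dehydrogenase of the first oxidation (chr1:16105774-16133734, plus strand), had 30.5, 23.0, 27.0 and 27.6 FPKM in cKO 1 to 4, against 31.4, 26.2, 25.4 and 20.4 FPKM in WT 1 to 4. WT 4 was the lowest library and WT 1 the highest, so the groups overlapped. Rdh10 averaged 27.0 ± 3.10 FPKM in cKO and 25.8 ± 4.53 FPKM in WT (log2 difference 0.07, SE 0.12, 95% interval -0.21 to 0.35, limma adjusted p = 0.975, exact permutation p = 0.629).

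Dhrs3, which reduces retinal back to retinol (chr4:144892827-144928209, plus strand), had 101, 125, 60.2 and 95.8 FPKM in cKO 1 to 4, against 69.1, 75.2, 88.2 and 134 FPKM in WT 1 to 4. The lowest library, cKO 3, and the highest, WT 4, differed 2.23-fold, and high and low libraries occurred in both groups. Dhrs3 averaged 95.4 ± 26.7 FPKM in cKO and 91.7 ± 29.4 FPKM in WT (log2 difference 0.06, SE 0.24, 95% interval -0.48 to 0.60, limma adjusted p = 0.99, exact permutation p = 0.857). With the epithelium list as a covariate the difference was -0.05.

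Among the receptors, Rarg was the most abundant, Rara followed, and Rarb was low. Rara, the alpha receptor (chr11:98927818-98974942, plus strand), had 5.24, 5.33, 5.92 and 6.35 FPKM in cKO 1 to 4, against 5.43, 4.45, 6.31 and 5.82 FPKM in WT 1 to 4. The groups overlapped, with WT 2 the lowest library. Rara averaged 5.71 ± 0.52 FPKM in cKO and 5.50 ± 0.79 FPKM in WT (log2 difference 0.05, SE 0.10, 95% interval -0.18 to 0.28, limma adjusted p = 0.979, exact permutation p = 0.714).

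Rarg, the gamma receptor (chr15:102234938-102257517, minus strand), had 13.3, 15.2, 13.5 and 14.4 FPKM in cKO 1 to 4, against 13.9, 14.1, 15.9 and 17.6 FPKM in WT 1 to 4. The 2 highest libraries were WT 4 and WT 3, and the other WT libraries lay inside the cKO range. Rarg averaged 14.1 ± 0.872 FPKM in cKO and 15.4 ± 1.73 FPKM in WT (log2 difference -0.12, SE 0.08, 95% interval -0.30 to 0.07, limma adjusted p = 0.929, exact permutation p = 0.229).

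Rarb, the beta receptor and itself a known target of retinoic acid (chr14:16430839-16819156, minus strand), had 1.68, 2.48, 1.19 and 1.49 FPKM in cKO 1 to 4, against 1.30, 1.04, 2.03 and 2.65 FPKM in WT 1 to 4. Its highest libraries were WT 4 and cKO 2, one in each group. Rarb averaged 1.71 ± 0.554 FPKM in cKO and 1.75 ± 0.729 FPKM in WT (log2 difference -0.0053, SE 0.21, 95% interval -0.47 to 0.46, limma adjusted p = 0.997, exact permutation p = 1). Of its 5265 exon bases, 1793 (34.1%) also lie in exons of Top2b on the opposite strand. The SMART-Seq and Nextera kits do not mark strand, so fragments there cannot be told apart. Top2b had 22 to 26.3 FPKM over all libraries, and its correlation with Rarb was -0.18.

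Together the 3 receptors summed to 21.5 ± 1.32 FPKM in cKO and 22.6 ± 3.04 FPKM in WT (SD, n = 4 each). Rarg made up 65.4 ± 0.56% of that sum in cKO and 68.1 ± 2.70% in WT, with ranges of 64.7 to 66.0% in cKO and 65.6 to 71.9% in WT. Rara made up 26.6 ± 2.62% in cKO and 24.3 ± 2.09% in WT, and Rarb 7.9 ± 2.2% in cKO and 7.5 ± 2.17% in WT. The shares overlapped between the genotypes for all 3 receptors.

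Cyp26b1, which oxidises retinoic acid for clearance (chr6:84571414-84593908, minus strand), was the lowest member. It had 0.734, 0.751, 0.254 and 0.382 FPKM in cKO 1 to 4, against 0.302, 0.264, 0.343 and 0.53 FPKM in WT 1 to 4. The libraries cKO 1 and cKO 2 were highest, and cKO 3 was the lowest of all 8. Read as whole fragments, they were 64, 64, 23 and 32 fragments in cKO 1 to 4 and 25, 19, 29 and 45 fragments in WT 1 to 4, each within 0.0010 of a whole number. The sums, not scaled for depth, were 183 fragments in cKO (95% Poisson interval 157.4 to 211.5) and 118 in WT (97.7 to 141.3). These intervals cover counting error only, not the spread between mice. Cyp26b1 averaged 0.53 ± 0.251 FPKM in cKO and 0.36 ± 0.118 FPKM in WT, a ratio of 1.47. In a limma fit of all genes with no filter, where 1 of 18065 genes was called (0.00554%), its log2 difference was 0.16 (SE 0.12, 95% interval -0.12 to 0.43, adjusted p = 0.925, exact permutation p = 0.286). The difference was 0.09 without cKO 1, 0.09 without cKO 2, 0.25 without cKO 3 and 0.20 without cKO 4. It ranged from 0.13 to 0.22 when single WT libraries were left out, and was 0.04 with the epithelium list as a covariate. The libraries cKO 1 and cKO 2 also had the highest epithelium sums. Apart from that covariate, the part of epithelium in the values of Cyp26b1 was not tested.

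**Figure D2:**
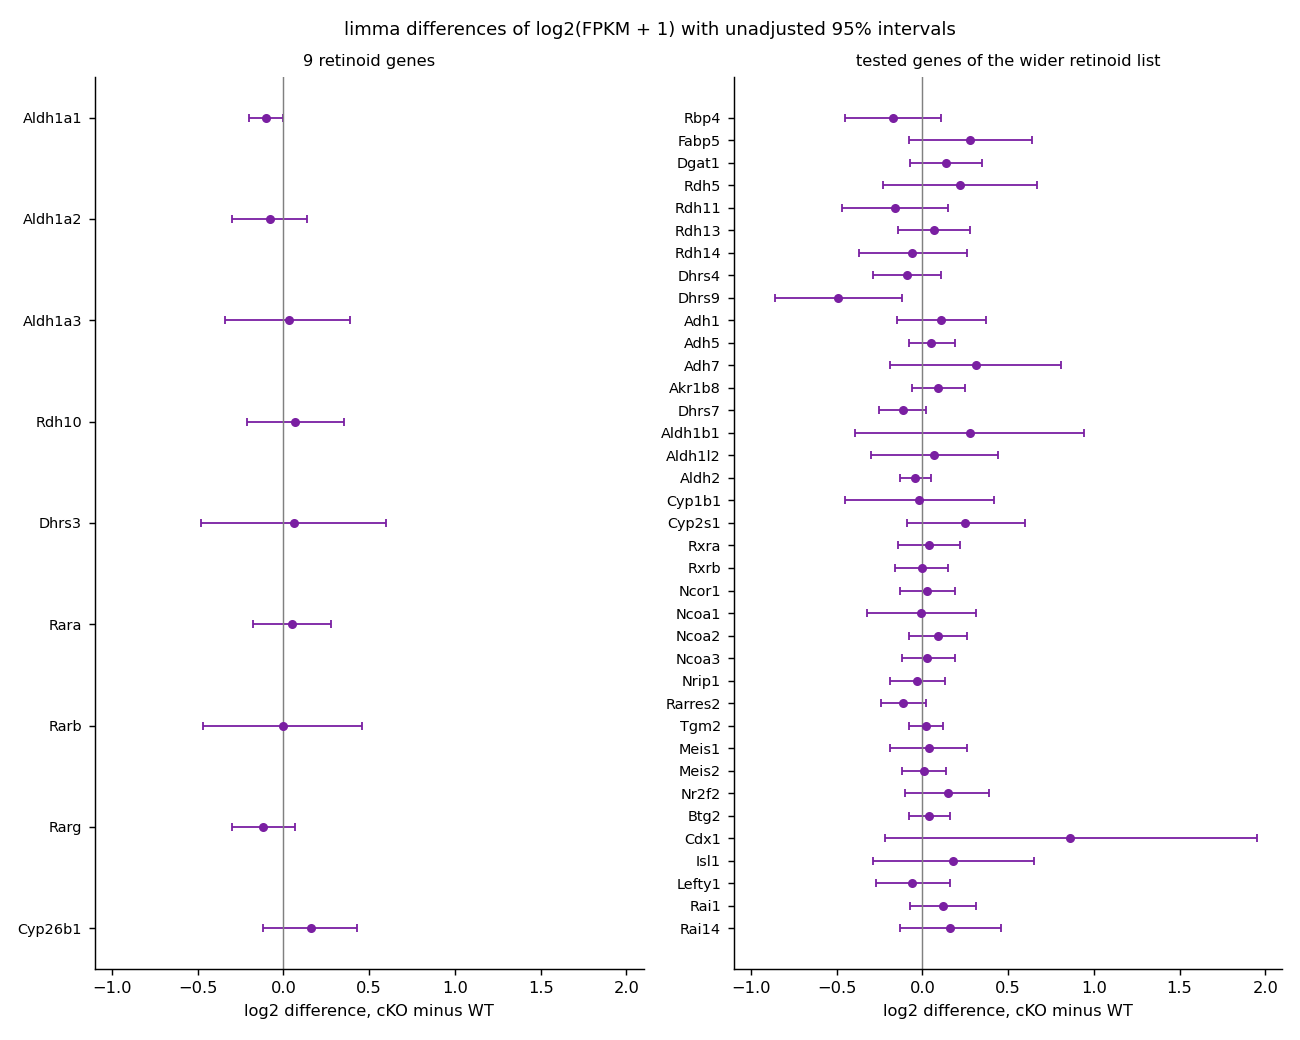
Log2 difference (cKO minus WT) of each member with its 95% interval from limma, and the same for tested genes of the wider list of vitamin A genes described below. All 9 member intervals include 0, that of Aldh1a1 ending at 0.00 and that of Dhrs3 reaching from -0.48 to 0.60, and Dhrs9 is the wider-list gene shown whose interval does not (-0.86 to -0.12).

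The members differed in how much they varied between mice of 1 genotype. Dhrs3 had a within-group SD of 0.43 on the log2 scale, against a median of 0.09 for the 1236 genes whose mean level lay within 2-fold of it, and 99.1% of those had a smaller SD. For Aldh1a3 the SD was 0.28 (96.2% of 4041 genes of like level had a smaller one), and for Rdh10 it was 0.21 (91.7% of 3274). Aldh1a1 was at the other end, with an SD of 0.04 and 4.4% of 1563 genes of like level below it. Rarb (0.34) had 86.4% of 2821 genes below it, Aldh1a2 (0.16) 80.4% of 3485, and Rarg, Rara and Cyp26b1 lay near the middle (54.4%, 54.0% and 50.3%).

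**Figure D3:**
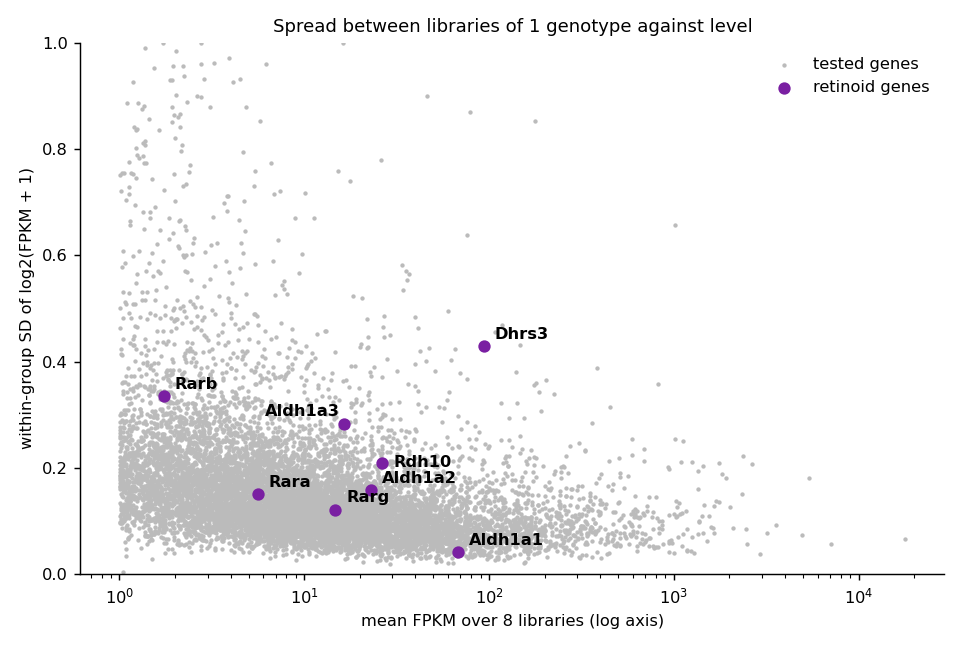
Pooled within-genotype SD of log2(FPKM + 1) against mean FPKM (log axis) for the 11506 tested genes, with the 8 tested members marked. Dhrs3, at an SD of 0.43, lies above 99.1% of genes of like level and Aldh1a1, at 0.04, above 4.4%; the 113 genes with an SD over 1 lie outside the plot.

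Dhrs3 was compared across libraries with Rarb and Cyp26b1, the other members known to respond to retinoic acid, and none of the 3 pairs passed after adjustment. Over the 8 libraries, the log2 levels of Dhrs3 and Rarb had r = 0.89 (two-sided exact permutation p = 0.00486, adjusted 0.107 over 36 member pairs) and rho = 0.86 (exact p = 0.0107, adjusted 0.193). Without the libraries farthest from the median of Dhrs3, cKO 3 and WT 4, r was 0.83, and with each genotype centred on its mean it was 0.89. Dhrs3 and Cyp26b1 had r = 0.81 (exact permutation p = 0.019, adjusted 0.171) and rho = 0.90 (exact p = 0.00456, adjusted 0.164). There r was 0.86 without the same libraries and 0.86 within genotypes. Rarb and Cyp26b1 had r = 0.70 (exact permutation p = 0.0583, adjusted 0.35) and rho = 0.81. In plain values, WT 4 and cKO 2 were the highest libraries for Dhrs3 and for Rarb, and cKO 3 was the lowest for Dhrs3 and Cyp26b1. The Rarb window shown above held the receptor repeat, and the windows shown of Dhrs3 and Cyp26b1 did not. Each window covers only 300 bases, and the part of these letters in the levels was not tested.

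Rdh10 ran the other way from Rarg, with r = -0.86 (exact permutation p = 0.00595, adjusted 0.107) and rho = -0.81 (exact p = 0.0218, adjusted 0.196). Without WT 4 and WT 1 r was -0.74, and within genotypes it was -0.89. Rarb and Rarg had r = 0.79 (exact permutation p = 0.017, adjusted 0.171) with rho = 0.67 (exact p = 0.0831, adjusted 0.59), and r was 0.58 without the 2 libraries farthest from the median of Rarb. Rdh10 and Rarb had r = -0.71 (exact permutation p = 0.046, adjusted 0.331) with rho = -0.60 (exact p = 0.132, adjusted 0.59), and r was -0.48 without the 2 farthest libraries. These were the 5 of 36 pairs with an unadjusted Pearson p under 0.05, and 0 pairs passed after adjustment by Pearson or Spearman. The pairs share the libraries and their scaling.

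**Figure D4:**
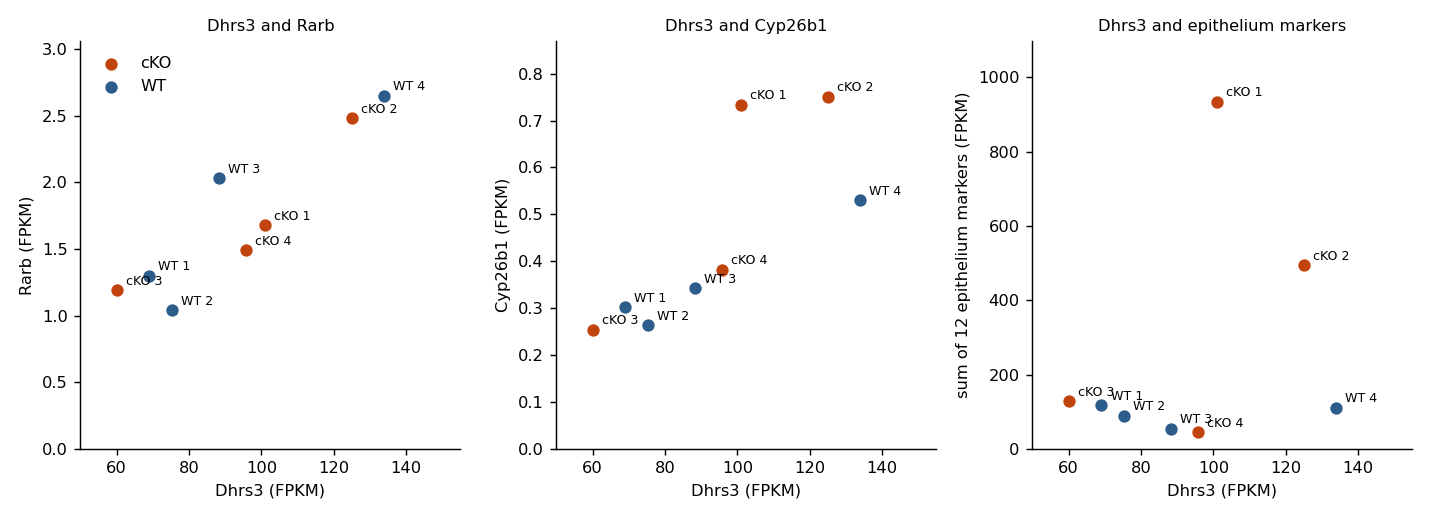
FPKM of Rarb, Cyp26b1 and the summed epithelium markers against FPKM of Dhrs3 in each library, cKO and WT marked apart. Rarb and Cyp26b1 are high where Dhrs3 is high (r = 0.89 and 0.81 on the log2 scale, neither passing after adjustment), with libraries of both genotypes along the range, while the epithelium sum is highest in cKO 1 at a Dhrs3 level of 101 FPKM.

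Genes outside the pathway whose pattern was most like a member's were named where r over the 8 libraries reached 0.95, as a description. They were Sntb1 (0.965) and Hp1bp3 (0.959) for Aldh1a1, Mpc2 (0.989) and Fkbp1a (0.985) for Aldh1a2, Zfp385a (0.954) for Dhrs3 and Tfeb (0.973) for Rarg. Each was picked as the best of 7707 genes over only 8 libraries, so these values of r carry no test.

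The other genes of vitamin A metabolism and response gave no call either. Of 72 genes in 6 roles, 39 were tested and limma called 0, against 0.00869% of all genes. Before adjustment, 1 had p below 0.05, beside 5.41% of all genes tested. Of the 39, 25 had a higher and 14 a lower cKO mean by log2 value (as in the counts by role below). Over all genes tested, 5451 were higher and 6055 lower. The 39 had a median log2 difference of 0.04 and a range of -0.49 to 0.86. Of the 39 tested genes, the one with the unadjusted p below 0.05 was Dhrs9, a retinol dehydrogenase. Dhrs9 had 1.10, 0.706, 0.948 and 0.718 FPKM in cKO 1 to 4, against 1.35, 2.51, 1.16 and 1.62 FPKM in WT 1 to 4, so that every cKO library lay below every WT library, as for 1.90% of all genes tested. It averaged 0.869 ± 0.192 FPKM in cKO and 1.66 ± 0.598 FPKM in WT (log2 difference -0.49, SE 0.16, 95% interval -0.86 to -0.12), which did not pass (limma adjusted p = 0.897, exact permutation p = 0.0286). The values stood for 176 fragments in cKO and 307 in WT.

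Of the genes of this list below a mean of 1 FPKM, 30 had a value in the fit with no filter, and limma called 0 of them. There 3 had an unadjusted p below 0.05, all higher in cKO, beside 5.20% of the 18065 genes in that fit. Rbp2, a retinol-binding protein known from enterocytes, had 0.439, 0.449, 0.105 and 0.342 FPKM in cKO 1 to 4, against 0, 0.133, 0 and 0.113 FPKM in WT 1 to 4. These were 12 fragments in cKO and 2 in WT, and cKO 3 lay inside the WT range (log2 difference 0.32, SE 0.09, limma adjusted p = 0.914, exact permutation p = 0.0857).

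Rdh16, of the retinol dehydrogenase family, had 0.412, 0.0878, 0.132 and 0.107 FPKM in cKO 1 to 4, against 0, 0.0832, 0 and 0.0353 FPKM in WT 1 to 4. Every cKO library lay above every WT library, as for 1.45% of the genes in that fit, with 43 fragments in cKO, 24 of them in cKO 1, and 6 in WT (log2 difference 0.19, SE 0.08, limma adjusted p = 0.914, exact permutation p = 0.0286). Aldh1l1, a folate enzyme of the aldehyde dehydrogenase family, had 1.77, 0.879, 0.998 and 0.763 FPKM in cKO 1 to 4, against 0.528, 0.586, 0.498 and 0.846 FPKM in WT 1 to 4. The groups overlapped only through WT 4 (log2 difference 0.36, SE 0.15, limma adjusted p = 0.914, exact permutation p = 0.0571). Rdh16 and Aldh1l1 were highest in cKO 1, and Rbp2 in cKO 2 and cKO 1, the libraries with the highest epithelium sums, and the part of epithelium in these values was not tested.

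For uptake, binding and storage, 4 of 14 genes were tested, 2 higher and 2 lower in the cKO mean. Rbp4, the secreted carrier of retinol, was at 28.2 ± 4.13 FPKM in cKO and 31.8 ± 4.96 FPKM in WT (SD, n = 4 each here and below). Dgat1, which can esterify retinol, had 19.1 ± 2.24 FPKM in cKO and 17.2 ± 1.62 FPKM in WT, and Fabp5, a lipid-binding protein, 2.67 ± 0.381 FPKM in cKO and 2.07 ± 0.62 FPKM in WT. None of these 3 passed in limma (adjusted p = 0.897 to 0.929).

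Of 18 other retinol dehydrogenases and retinal reductases, 11 were tested, 6 higher and 5 lower. Adh1, the cytosolic alcohol dehydrogenase that also oxidises retinol, was above every member at 256 ± 50.2 FPKM in cKO and 234 ± 7.04 FPKM in WT. Its cKO values spread from 202 to 319 FPKM and its WT values from 227 to 244 FPKM. Dhrs7 was at 90.6 ± 4.03 FPKM in cKO and 98.1 ± 6.72 FPKM in WT, Adh5 at 36.8 ± 1.98 FPKM in cKO and 35.5 ± 2.13 FPKM in WT, and Akr1b8 at 29.1 ± 2.38 FPKM in cKO and 27.2 ± 1.56 FPKM in WT. None of the 4 passed.

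Of 6 further aldehyde dehydrogenases 3 were tested, 2 higher and 1 lower. The mitochondrial enzyme Aldh2 was at 152 ± 2.83 FPKM in cKO and 156 ± 1.67 FPKM in WT. Aldh1l2 was at 2.87 ± 0.982 FPKM in cKO and 2.64 ± 0.432 FPKM in WT. Aldh1b1 was at 1.49 ± 1.09 FPKM in cKO and 0.937 ± 0.402 FPKM in WT, with its highest values, 2.80 and 1.96 FPKM, in cKO 1 and cKO 2. Those libraries also had the highest epithelium sums, and the part of epithelium in the values of Aldh1b1 was not tested. Aldh1l1, below the filter, was at 1.10 ± 0.456 FPKM in cKO and 0.614 ± 0.159 FPKM in WT.

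The other CYP26 enzymes were near 0: Cyp26a1 was listed at 0 in all libraries but WT 3 (0.135 FPKM), and Cyp26c1 in all but cKO 2 (0.0389 FPKM). Cyp26b1 was thus the CYP26 gene measured in every library. Cyp1b1, a cytochrome that can oxidise retinol, was at 2.60 ± 1.07 FPKM in cKO and 2.55 ± 0.456 FPKM in WT, and Cyp2s1 at 2.80 ± 0.728 FPKM in cKO and 2.16 ± 0.381 FPKM in WT. Both were tested, with Cyp2s1 higher (log2 difference 0.25) and Cyp1b1 lower (-0.02) by the mean log2 value, and neither passed.

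Of 10 partner receptors and coregulators, 8 were tested, 5 higher and 3 lower, all within -0.03 to 0.09 on the log2 scale. Rxrb, a partner of the RAR receptors, was at 17.8 ± 1.40 FPKM in cKO and 17.8 ± 1.02 FPKM in WT. The corepressor Ncor1 was at 17.4 ± 1.13 FPKM in cKO and 17.0 ± 1.22 FPKM in WT, Nrip1 at 17.1 ± 0.72 FPKM in cKO and 17.5 ± 1.6 FPKM in WT, and the coactivator Ncoa3 at 12.8 ± 1.01 FPKM in cKO and 12.5 ± 0.52 FPKM in WT.

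Of 20 genes that respond to retinoic acid in other tissues or cultured cells, 11 were tested, 9 higher and 2 lower, with a median of 0.04. Btg2, an antiproliferative gene, was at 743 ± 43.1 FPKM in cKO and 722 ± 23.2 FPKM in WT, and the chemoattractant Rarres2 at 673 ± 44.8 FPKM in cKO and 725 ± 24.1 FPKM in WT. The transglutaminase Tgm2 was at 88.0 ± 2.86 FPKM in cKO and 87.0 ± 2.35 FPKM in WT, and the homeobox gene Meis1 at 33.0 ± 4.93 FPKM in cKO and 31.9 ± 1.2 FPKM in WT. The highest difference of the list was that of Cdx1, an intestinal epithelial transcription factor, named here after its values were seen. It had 8.90, 2.69, 1.35 and 0.381 FPKM in cKO 1 to 4, against 1.05, 0.889, 0.755 and 0.582 FPKM in WT 1 to 4 (log2 difference 0.86, limma adjusted p = 0.897), in the same order over the cKO libraries as the epithelium sum. The part of epithelium in the values of Cdx1 was not tested.

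**Figure D5:**
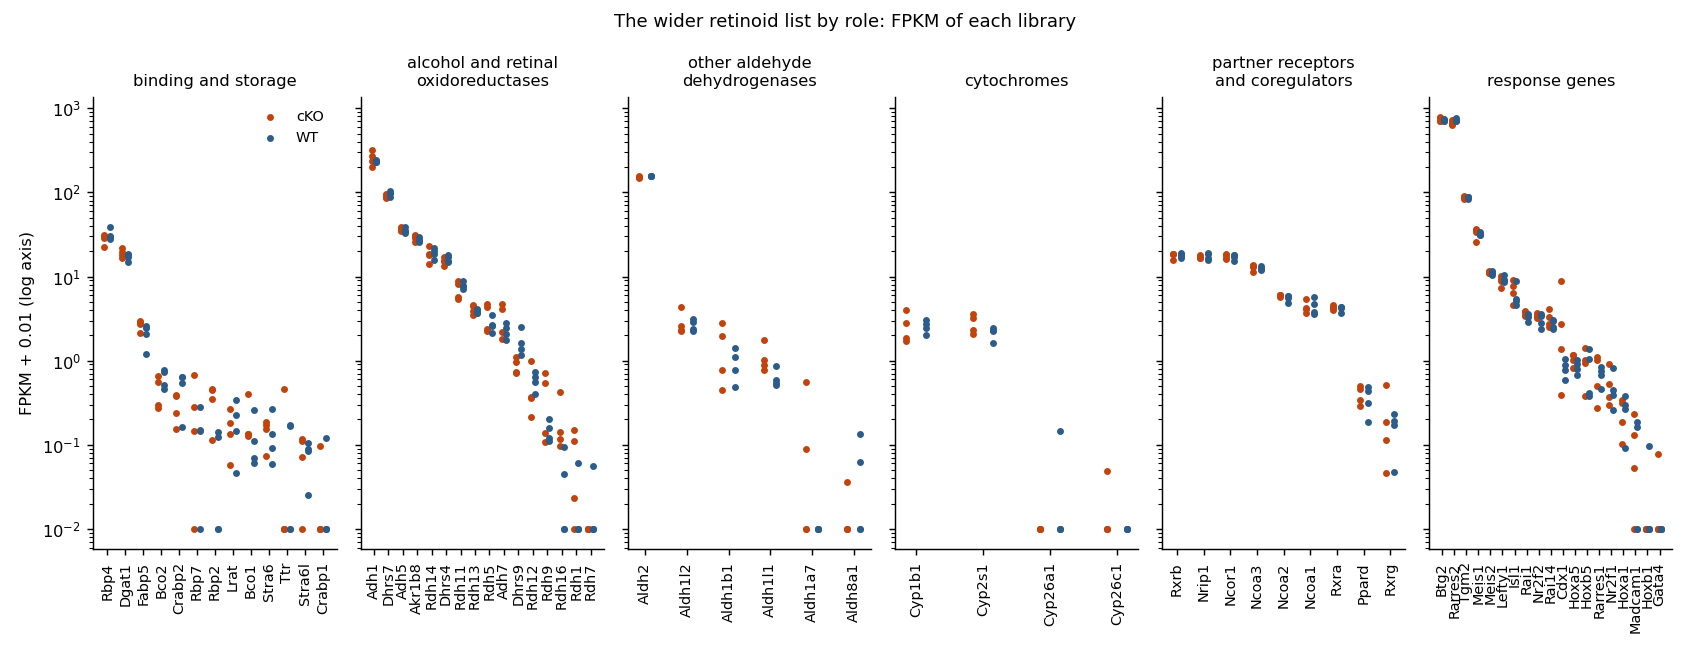
FPKM of genes of the wider list above 0 in any library, on a log axis after adding a small constant that places zeros at the bottom, by role and in order of level, with 1 point per library and cKO left of WT. Adh1, Btg2 and Rarres2 are the highest (means of 256, 743 and 673 FPKM in cKO and 234, 722 and 725 FPKM in WT), and the 4 cKO points of Dhrs9 lie below its 4 WT points.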

How the data were processed

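RNA from sorted stromal cells was made into full-length SMART-Seq cDNA and Nextera XT libraries, per the labels' protocols. The authors deposited 1 table of FPKM values per library. The submitters' processing notes name Cufflinks 2.2.1 and Cuffdiff, TopHat2 2.1.1 with Bowtie2 2.3.5.1, SAMtools 0.1.18 and the mm10 build, and the gene annotation is not given in the sources used here. Groups came from the titles, and each library is 1 mouse, per the series' design text. The members and all gene lists were chosen with earlier results of these data known.

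The 11506 genes whose mean FPKM reached 1 were tested on log2(FPKM + 1) with limma 3.58.1 in R 4.3.3 (eBayes with a trend, 1 factor), and an adjusted p under 0.05 was a call. Cyp26b1 and other genes under that mean were read from a fit with no filter. Single genes were also compared by two-sided exact permutation over 70 arrangements, and pairs of members over 40320 pairings. FPKM is relative to the library, so abundant genes shift all others. Depth and whole fragments were read from the steps between low FPKM values. The median depth of 17800000 fragments rests on 62 genes, and Cyp26b1 was the 1 member of 9 whose values lay on such steps. The limma procedure was tested on simulated data. Gene positions are from GENCODE M21 (GRCm38) and promoters from RefSeq. Other steps used scipy 1.17.1, numpy 2.4.6, matplotlib 3.10.9 and pandas 2.3.3 in Python 3.11.15.

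Named were all members, the 4 most abundant genes of each role of the wider list (some results of that list are not reported here) and those with an unadjusted p under 0.05, the 2 genes most like each member where r reached 0.95, the leading markers of a cell type where a result turned on them, Il10ra and Pdgfra. Alternatives were other pseudocounts, filters, scalings and variance settings, array weights, the replicate number as a block, the epithelium list as a covariate, and each library left out.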

Additional observations from a re-analysis of the deposited data

How the results depend on the processing

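The count of called members was 0, and that of called genes in the wider list 0, under each alternative run, and the adjusted p of members ranged from 0.787 to 1. Over all genes 1 was called, and 1 to 4 when single libraries were left out (4 without cKO 1, 2 without cKO 2 and 3 without WT 3). With the replicate block, limma called 1 gene over all and 0 members. Deviations of libraries with the same number correlated at only 0.018 to 0.091, so the numbers were not taken as pairs. Signs turned only for differences close to 0: the Dhrs3 difference was -0.05 with the epithelium covariate, and the Rarb difference was 0.0057 with a pseudocount of 0.1, 0.0022 with 0.25 and 0.02 after rescaling to a fixed sum, where the median of all genes was 0.025. When single libraries were left out, differences ran from -0.11 to 0.17 for Aldh1a3, -0.03 to 0.17 for Rdh10, -0.08 to 0.26 for Dhrs3, -0.03 to 0.11 for Rara and -0.14 to 0.14 for Rarb. Aldh1a1 stayed lower in cKO (-0.11 to -0.06) and Cyp26b1 higher (0.04 to 0.39) under all alternatives run for them, and Aldh1a2 and Rarg kept their signs when libraries were left out. Rarb gave no value at a minimum mean of 5 FPKM. With the epithelium covariate, the difference moved away from 0 for Aldh1a2 (-0.11), Aldh1a3 (0.11), Rara (0.13) and Rarb (-0.08). The difference moved toward 0 for Aldh1a1 (-0.08), Rdh10 (0.05), Rarg (-0.10) and Cyp26b1 (0.04). Alternatives for correlations were added after the data were seen: r ranged from 0.83 to 0.92 for Dhrs3 with Rarb, 0.74 to 0.88 for Dhrs3 with Cyp26b1, -0.89 to -0.69 for Rdh10 with Rarg, 0.66 to 0.87 for Rarb with Rarg and -0.83 to -0.52 for Rdh10 with Rarb without single libraries. With 4 mice per group, the interval of Dhrs3 (-0.48 to 0.60) covers changes that these libraries could not show, and that of Aldh1a1 (-0.20 to 0.00) is far narrower.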

Other observations

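Dhrs3 was also set against the genes of the wider vitamin A list across the 8 libraries, a comparison of 58 genes from which the gene below was picked after the values were seen. Lrat, which stores retinol as esters and is known to be induced by retinoic acid, had 0.17, 0.256, 0.0482 and 0.125 FPKM in cKO 1 to 4, against 0.137, 0.0364, 0.217 and 0.329 FPKM in WT 1 to 4. These values stood for 17, 25, 5 and 12 fragments in cKO and 13, 3, 21 and 32 fragments in WT. Its correlation with Dhrs3 was r = 0.86 (exact permutation p = 0.00744, adjusted 0.216) and rho = 0.79 (exact p = 0.0279, adjusted 0.532), and r was 0.70 without the libraries farthest from the median of Dhrs3. The relation did not pass after adjustment.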
